A study of Solanum lycopersicum with 2 samples.

Results

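The genes described here are 8 chlorophyll a/b binding genes of tomato (Solanum lycopersicum, cultivar Moneymaker) on chromosomes 3, 7, 10 and 12, out of 25923 genes listed in either of 2 sequencing libraries, called samples here. They encode light-harvesting proteins, lie outside the tandem cluster of chromosome 2 and were taken by identifier, with no cut-off on their measured values. Earlier results of these data were known when they were chosen. Messenger RNA was read with MACE, which sequences the 3′ ends of polyadenylated transcripts and is designed to give 1 read per transcript, so that levels of different genes can be set side by side without a correction for length. Untreated glasshouse plants 8 weeks old gave 1 library of young leaves and 1 library of anthers, the flower parts that bear pollen, collected at different developmental stages. The anther sample held 12411606 mapped reads and the leaf sample 11534512. Levels are reads per 1000000 mapped reads (RPM).

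Chlorophyll a/b binding proteins are encoded in the nucleus, imported into chloroplasts and built into the thylakoid membrane, where they hold chlorophyll and carotenoids and pass absorbed light energy to the reaction centres. One branch of the family forms the antenna of photosystem II, which splits water, and another forms the antenna of photosystem I, which passes electrons on towards NADP. Their messenger RNAs are among the most abundant of green leaves, while pollen, which forms inside the anther, does not photosynthesise.

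Of the 8 genes, 3 carry a name in the definition used here. Solyc07g047850 is CAB4, which encodes an antenna protein of photosystem II. Solyc10g006230 is CAB7 and Solyc10g007690 is CAB8, which both encode antenna proteins of photosystem I. RefSeq's gene table for the assembly SLM_r2.1 lists CAB4 on chromosome 7, and CAB7 and CAB-8 on chromosome 10, the same chromosomes as in the files, but 0 of the 8 identifiers stand in it. The other 5, namely Solyc03g005760, Solyc03g005780 and Solyc03g005790 on chromosome 3 and Solyc12g006140 and Solyc12g011450 on chromosome 12, are given without an antenna. The same table lists 3 CAB genes on chromosome 3 and 2 on chromosome 12, and no source used here pairs them with these identifiers. No list of tissue markers was drawn up, so the tissue labels were not checked against markers; the leaf and anther levels of other photosynthesis genes are given at the end.

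All 8 genes were listed in both samples, and each was higher in the leaf sample. Together they took 0.288% of the mapped reads of the anther sample (35756 reads, 2881 RPM) and 2.55% of those of the leaf sample (293725 reads, 25465 RPM). The summed level was thus 8.84-fold higher in the leaf sample, with a 95% interval of 8.74 to 8.94. This interval, like all others given here, is for counting error only. With 1 sample per tissue there is no replicate check and no test of the tissues, and the ratios compare these samples. In bulk tissue a smaller share of chloroplast-bearing cells and less of these RNAs per cell cannot be told apart.

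Log2 ratios were computed as log2((anther RPM + 1) / (leaf RPM + 1)), so negative values mean a higher level in the leaf. All 8 genes were higher in the leaf by 2-fold or more, against 17.5% of the 17137 genes with a mean level of 1 RPM or more. All 8 were also higher by 4-fold or more, against 7.17% of those 17137 genes. Of the 8 genes, 7 had a mean of at least 100 RPM, and all 7 were higher in the leaf by 2-fold or more, against 27.2% of the 1248 genes at that level. The median log2 ratio of the 8 genes was -3.38, with a range from -5.17 to -2.34, while that of all tested genes was 0.15. Moving the median of all genes to 0 therefore takes the 8 genes 0.15 farther towards the leaf.

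**Figure D1:**
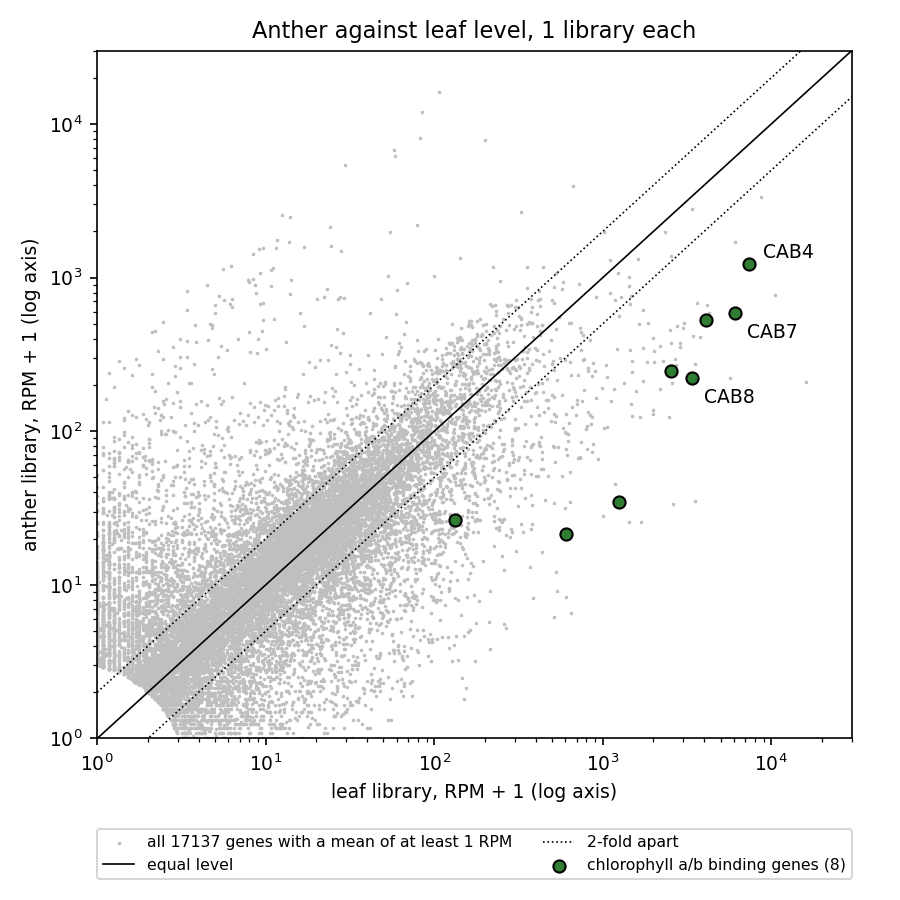
Level in the anther sample (vertical axis, RPM + 1, log scale) against level in the leaf sample (horizontal axis, RPM + 1, log scale) for the 17137 genes with a mean level of 1 RPM or more, in grey, and the 8 chlorophyll a/b binding genes, in green. All 8 lie below the lower dotted line, on the leaf side of a 2-fold difference, and CAB4 is the highest of them on both axes.

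The photosystem II gene CAB4 (Solyc07g047850) had the highest level of the 8 genes in both samples. It stood at 1220 RPM in anther (15139.5 reads) and 7367 RPM in leaf (84970.2 reads). Its leaf level was 6.04-fold the anther level (5.94 to 6.14), the second smallest ratio of the 8. CAB4 ranked 33rd among all genes of the anther sample and was the only one of the 8 within the 50 most abundant there. In the leaf sample it ranked 4th.

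The photosystem I genes CAB7 and CAB8 had lower levels than CAB4 in each sample. CAB7 (Solyc10g006230) stood at 584 RPM in anther (7248.5 reads) and 6079 RPM in leaf (70122 reads), a ratio of 10.4 (10.2 to 10.7). CAB8 (Solyc10g007690) stood at 222 RPM in anther (2761 reads) and 3375 RPM in leaf (38924 reads), a ratio of 15.2 (14.6 to 15.8). Both ratios were larger than that of CAB4. CAB7 ranked 5th in the leaf sample, directly after CAB4, and 116th in the anther sample, while CAB8 ranked 17th and 508th.

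Set side by side, the photosystem I genes CAB7 and CAB8 differed more between the samples than the photosystem II gene CAB4. The leaf over anther ratio of CAB7 was 1.72 times that of CAB4 (1.67 to 1.78), and that of CAB8 was 2.51 times that of CAB4 (2.41 to 2.62). CAB4 and CAB7 had fractional counts in both samples, while those of CAB8 were whole. How much of each fractional count was shared with similar genes is not stated, and the intervals do not cover it. The balance between CAB4 and the genes CAB7 and CAB8 therefore differed between the samples. CAB7 and CAB8 together had 806 RPM in the anther sample, 0.661 times the level of CAB4 (0.645 to 0.678). In the leaf sample they had 9454 RPM together, 1.28 times the level of CAB4 (1.27 to 1.29). The photosystem I genes also differed from each other, since CAB7 was 2.63 times as high as CAB8 in the anther sample (2.51 to 2.74) and 1.80 times as high in the leaf sample (1.78 to 1.82). This comparison rests on 1 named photosystem II gene and 2 named photosystem I genes, and whether it holds for the other genes of each antenna was not tested. The ratios of the 5 genes given without an antenna ran from 5.24 to 37.1, below that of CAB4 and above that of CAB8. The values therefore describe these 3 named genes and not the antennae as a whole.

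**Figure D2:**
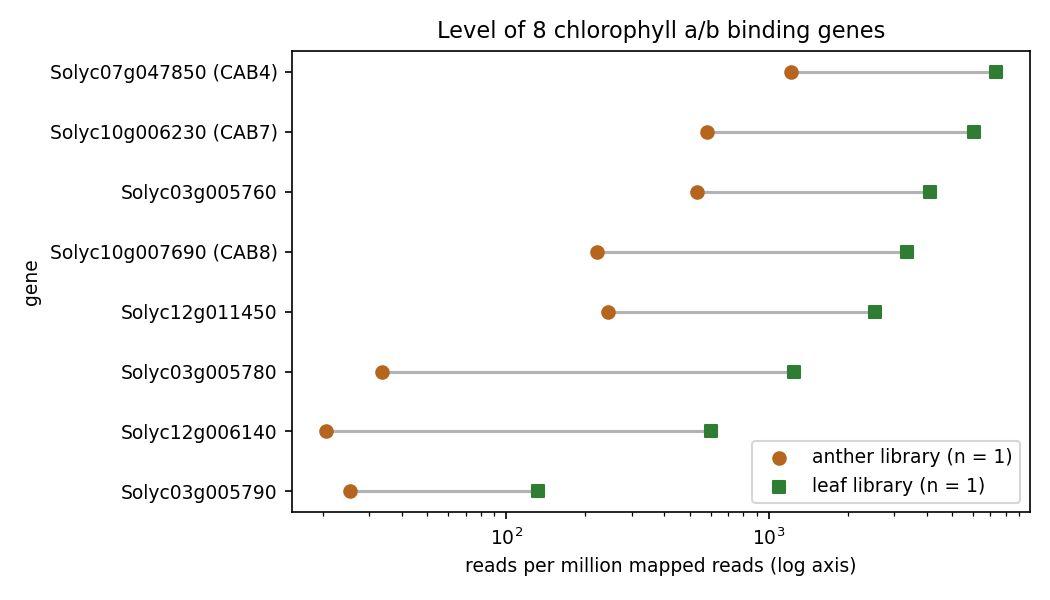
Level of each of the 8 genes in RPM (horizontal log axis) in the anther sample (brown circles) and the leaf sample (green squares), with 1 sample per tissue and genes ordered by leaf level. Every leaf value lies to the right of its anther value, and the distance is longest for Solyc03g005780 and Solyc12g006140.

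The 3 genes of chromosome 3 have closely spaced identifiers and had the widest spread of ratios. Solyc03g005760 had 531 RPM in anther (6590 reads) and 4111 RPM in leaf (47419 reads), a ratio of 7.74 (7.55 to 7.95). Solyc03g005780 had 33.5 RPM in anther (416 reads) and 1244 RPM in leaf (14344 reads), a ratio of 37.1 (33.7 to 41.0). Solyc03g005790 had 25.3 RPM in anther (314 reads) and 132 RPM in leaf (1528 reads), a ratio of 5.24 (4.63 to 5.93). The largest and the smallest ratio of all 8 genes were therefore those of Solyc03g005780 and Solyc03g005790, whose identifiers follow each other on the same strand, and they differed 7.08 times (6.04 to 8.30). Solyc03g005760 lies on the opposite strand.

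Identifier Solyc03g005770, which falls between these genes and was not among the 8, had 122 RPM in anther and 1658 RPM in leaf, a ratio of 13.6 (12.9 to 14.3). Summed over the 4 consecutive identifiers the level was 712 RPM in anther and 7145 RPM in leaf, a ratio of 10.04 (9.82 to 10.3). Reads divided among these 4 genes alone, however they were divided, enter that sum in full. Any reads also shared with other genes enter it only in part. Solyc03g005760 took 74.6% of the reads of the 4 identifiers in the anther sample and 57.5% in the leaf sample, while Solyc03g005780 took 4.70% and 17.4%. All 4 had fractional read counts in both samples, and the sources used here do not state how much of each count was shared with similar genes.

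The genes of chromosome 12 lay on opposite strands and differed in level and ratio. Solyc12g011450 had 244 RPM in anther (3032 reads) and 2552 RPM in leaf (29442 reads), a ratio of 10.4 (10.1 to 10.9). Solyc12g006140 had 20.5 RPM in anther (254.5 reads) and 605 RPM in leaf (6976 reads), a ratio of 29.6 (26.1 to 33.6). Solyc12g006140 thus had the lowest anther level of the 8 genes and the second largest ratio, 2.83 times that of Solyc12g011450 (2.48 to 3.24).

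Ordered from the smallest to the largest leaf over anther ratio, the genes were Solyc03g005790, CAB4, Solyc03g005760, CAB7, Solyc12g011450, CAB8, Solyc12g006140 and Solyc03g005780. All 28 pairs of genes were compared by the ratio of their ratios. The counting interval held 1 for a single pair, CAB7 and Solyc12g011450, whose ratios differed 1.004 times (0.960 to 1.05). The ratios of CAB4 and Solyc03g005790 differed 1.15 times (1.02 to 1.30), and their order turned when the highest read peak was used in place of the reads (log2 ratios of -2.47 and -2.50). The spread between plants is not known, and these intervals do not cover it.

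**Figure D3:**
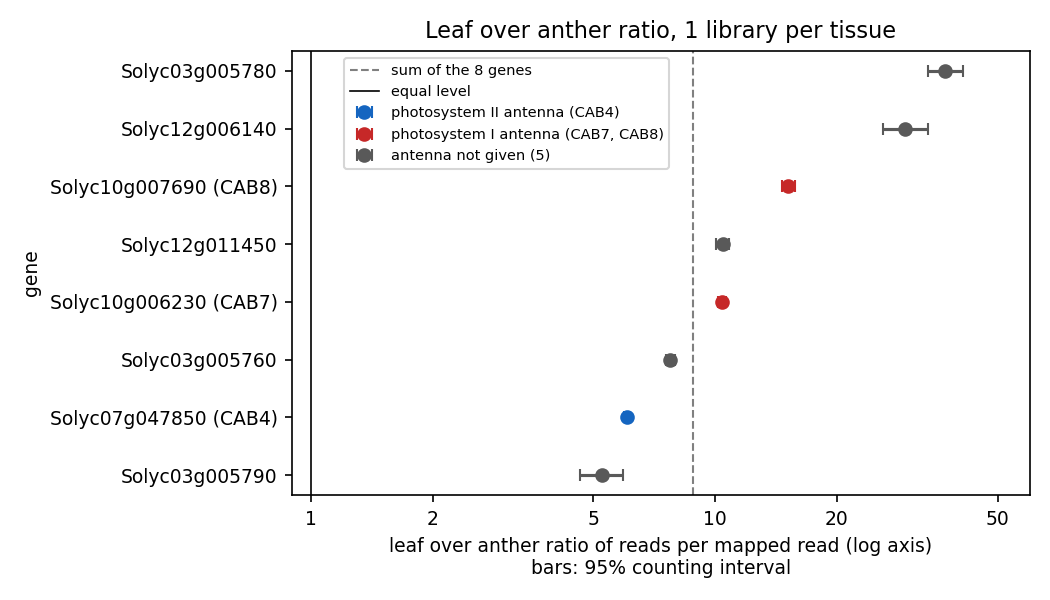
Leaf over anther ratio of reads per mapped read (horizontal log axis) for each of the 8 genes, with 95% counting intervals as bars, which are shorter than the symbols for several genes. CAB4 (blue) lies to the left of the dashed line, the ratio of the sum of the 8 genes (8.84), while CAB7 and CAB8 (red) lie to its right, and the 5 grey genes spread from 5.24 to 37.1.

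Since the ratios differed, each gene made up a different share of the reads on the 8 genes in each sample. CAB4 held 42.3% of the reads on the 8 genes in the anther sample (Wilson 95% interval 41.8% to 42.9%) and 28.9% in the leaf sample (28.8% to 29.1%). CAB7 held 20.3% and 23.9%, CAB8 held 7.72% and 13.3%, and Solyc03g005760 held 18.4% and 16.1%, in the anther and the leaf sample. Solyc03g005780 held 1.16% and 4.88%, Solyc12g006140 held 0.712% and 2.38%, Solyc12g011450 held 8.48% and 10.02%, and Solyc03g005790 held 0.879% and 0.520%. The shares of CAB4, Solyc03g005760 and Solyc03g005790 were thus larger in the anther sample, and those of the other 5 genes were larger in the leaf sample, by 5.53 percentage points for CAB8, 3.72 for Solyc03g005780 and 3.60 for CAB7. Without CAB4 the summed level of the other 7 genes was 10.9-fold higher in the leaf sample (10.7 to 11.1).

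The order of levels was nearly the same in both samples. CAB4, CAB7 and Solyc03g005760 took the top 3 places in each, in that order. CAB8 stood above Solyc12g011450 in the leaf sample and below it in the anther sample, where the intervals of their shares did not overlap (7.45% to 8.00% and 8.20% to 8.77%). Solyc03g005790 had the lowest leaf level, whereas in the anther sample Solyc12g006140 lay below it, with overlapping intervals of their shares (0.787% to 0.980% for Solyc03g005790 and 0.628% to 0.803% for Solyc12g006140). Of the 8 genes, 3 were among the 10 most abundant of the leaf sample and 6 among its 100 most abundant, against 0 and 1 in the anther sample.

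**Figure D4:**
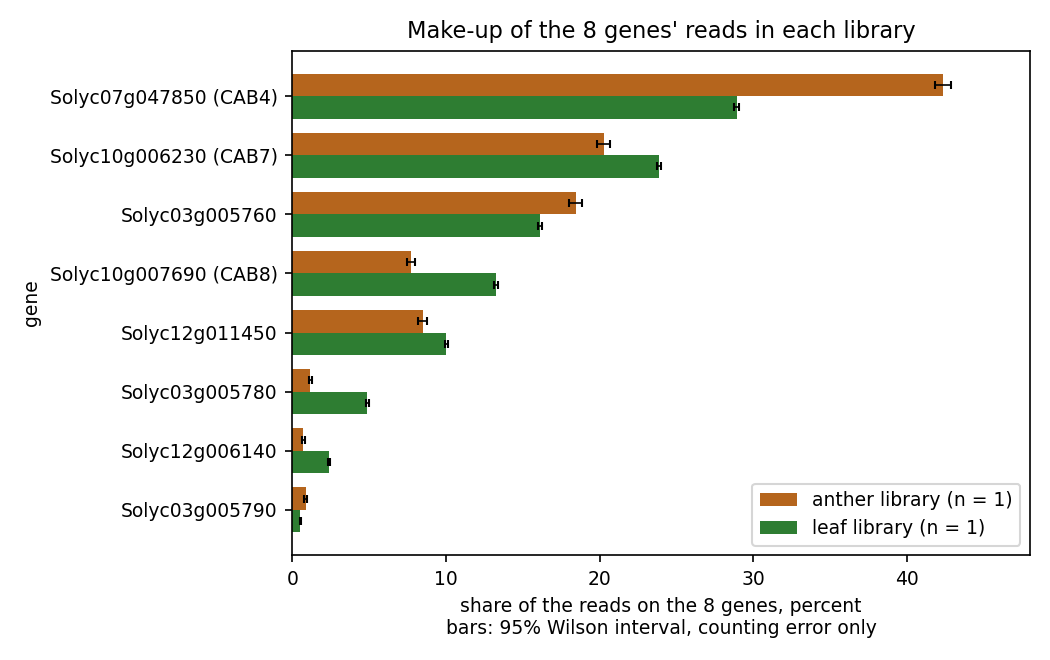
Share of the reads on the 8 genes that each gene held (horizontal axis, percent) in the anther sample (brown) and the leaf sample (green), with Wilson 95% intervals as bars and 1 sample per tissue. CAB4 holds 42.3% in the anther sample and 28.9% in the leaf sample, and CAB8 holds 7.72% and 13.3%.

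The deposited height of the highest read peak gave a second reading of the same genes. For CAB8 it was 606 in the anther sample and 8339 in the leaf sample, for CAB7 1923 and 17339, and for CAB4 3879.5 and 19990.5. Divided by the gene's reads, the peak came to 21.9% and 21.4% for CAB8, 26.5% and 24.7% for CAB7, and 25.6% and 23.5% for CAB4, near the median of 25.1% in both samples over 7827 genes that had at least 100 reads in each sample and no peak above the read number. The 5 genes of chromosomes 3 and 12 had higher values, from 31.8% to 49.0% in the anther sample and from 30.8% to 52.3% in the leaf sample. The leaf value minus the anther value was 7.16 percentage points for Solyc03g005790, -5.65 for Solyc12g006140 and -4.79 for Solyc03g005780. For the remaining genes it lay between -2.10 and 0.97. Over the 7827 genes the median absolute difference was 1.97 points, and the central 90% of differences lay between -5.92 and 5.89.

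**Figure D5:**
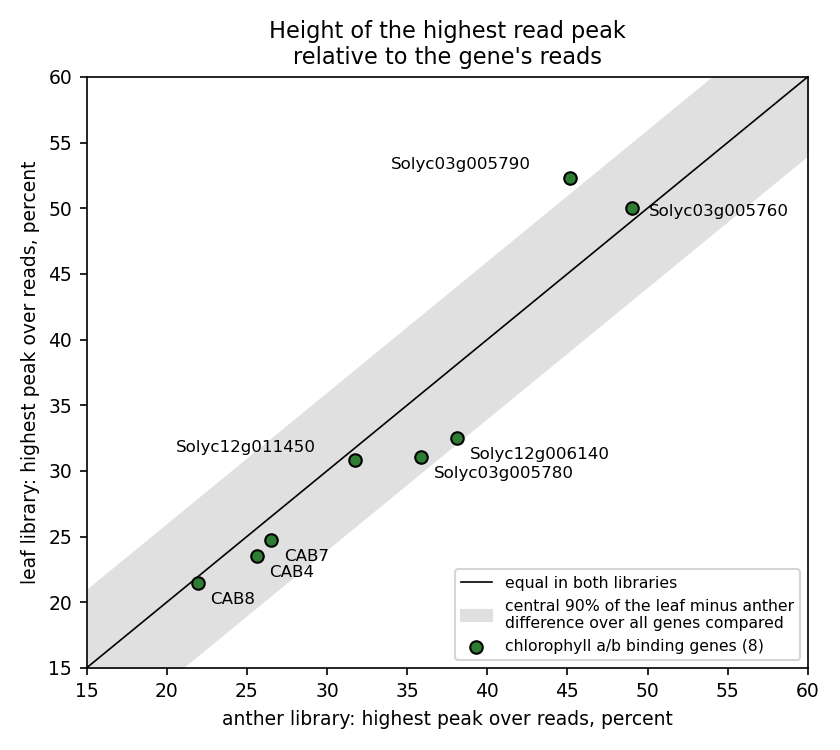
Height of the highest read peak as a percentage of the gene's reads in the leaf sample (vertical axis) against the anther sample (horizontal axis) for the 8 genes, with the line of equal values and, in grey, the central 90% of the difference over 7827 genes. Solyc03g005790 lies just above the grey band, and the other 7 genes lie within it.

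The genes next to these 8 had lower leaf levels and smaller differences between the tissues than any of the 8. The nearest listed identifiers on each side, within 50 identifier numbers and leaving out other light-harvesting identifiers, were 11 genes, of which 10 had a mean level of 1 RPM or more. Their leaf levels ran from 1.91 to 38.9 RPM and their log2 ratios from -1.35 to 0.72, with a median of -0.20. Of these 10 genes, 3 were higher in the leaf by 2-fold or more and 0 in the anther sample. Of all 17137 tested genes, 3006 (17.5%) were higher in the leaf by 2-fold or more and 3690 in the anther. No test of the difference between the 10 genes and the 8 genes was made.

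In the chromosome 2 cluster, taken as 8 identifiers, the summed level was 1690 RPM in anther and 11531 RPM in leaf, a ratio of 6.82 (6.73 to 6.92) beside 8.84 for the 8 genes described here. All 8 cluster genes were higher in the leaf by 4-fold or more, against 7.17% of all 17137 tested genes. Their ratios ran from 5.17 to 8.19, a narrower range than the 5.24 to 37.1 of the 8 genes described here. All 8 cluster genes had fractional counts, and how far reads shared among them affect the range of their ratios was not tested. Their median log2 ratio was -2.69 (range -3.03 to -2.36).

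Other genes of the photosynthetic apparatus also had higher leaf levels, by lists drawn from general knowledge of the tomato annotation, which the files do not name. These lists were chosen with earlier results of these data known, so they describe the samples and are not independent support. Of 11 further light-harvesting identifiers, 10 were higher in the leaf by 2-fold or more and 8 by 4-fold or more, at a median log2 ratio of -2.64 and a summed ratio of 7.77 (7.69 to 7.86). The remaining one had a log2 ratio of -0.46. Of 8 identifiers for photosystem subunits, plastocyanin and the Rubisco small subunits, 7 were higher in the leaf by 2-fold or more and 5 by 4-fold or more, with a median log2 ratio of -2.28 and a range from -6.25 to -0.96. With the 8 identifiers of the chromosome 2 cluster added, the lists held 27 identifiers. None of these 27 was higher in the anther by 2-fold or more, against 3690 of all 17137 tested genes. Of the 27, 25 were higher in the leaf by 2-fold or more. The shares of all tested genes higher in the leaf were 17.5% by 2-fold or more and 7.17% by 4-fold or more.

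The identifiers outside all lists whose pair of levels lay nearest to the median of the 8 genes (233 RPM in anther and 2964 RPM in leaf) were Solyc02g084440 and Solyc08g006930. Nearness was the Euclidean distance of log2(RPM + 1) over the 2 samples, which was 0.20 and 0.23. Solyc02g084440 had 243 RPM in anther and 2573 RPM in leaf, a ratio of 10.6 (10.2 to 11.0). Solyc08g006930 had 269 and 2723 RPM, a ratio of 10.1 (9.76 to 10.5).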

How the data were processed

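Per the labels' protocols, poly-A RNA was read from its 3′ end (MACE). The authors deposited, per gene, estimated counts of reads, a scaled level and a peak height, a signal whose computation the file headers do not state. The deposited scaled value equals the estimated count per 1000000 mapped reads and is called RPM here. FastQC is named per the submitters' processing notes. For the aligner, counter, genome build and annotation the entry is: not given in the sources used here. Counts were fractional for 20.8% of the listed anther genes and 19.5% of the listed leaf genes. In at least 1 library they were fractional for 7 of the 8 genes described. The share on that measure was 25.9% of all tested genes and 43.7% of those with a mean of at least 100 RPM. Fractions are taken as reads shared between places. Each library was placed by its tissue label, and 69.2% (anther) and 72.5% (leaf) of mapped reads lay on listed genes.

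A gene absent from a file was taken as 0. For single genes and sums, counts were rounded and the leaf over anther ratio given a 95% exact conditional (Clopper-Pearson) interval; ratios of ratios used the exact conditional odds ratio (SciPy 1.17.1). Reads carry no stated molecular identifiers. A count of 0 allows 3 reads, 0.242 RPM in the anther and 0.260 RPM in the leaf library. The calculations were run on simulated independent Poisson counts, the model that the intervals assume, so this checks the arithmetic only. The simulation held no shared reads and no spread between plants. TMM factors came from edgeR 4.0.16. The genes, lists and comparisons were chosen with earlier results of these data known. All 8 genes are named, with the 2 identifiers nearest to their median; Solyc03g005770, which is also on one of the lists otherwise given as counts, was singled out after its values were seen. Alternatives changed the pseudocount (0.1 or 5 RPM), scaling, filter, threshold, rounding or leaving out of fractional counts and, chosen after seeing the data, the measure (peak height).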

Additional observations from a re-analysis of the deposited data

How the results depend on the processing

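All 8 genes stayed higher in the leaf by 2-fold or more with each pseudocount, scaling, filter and threshold tried and by peak height; with whole-number genes alone the count was 1, since only CAB8 has whole counts in both libraries. Rounding fractional counts down removes less than 1 read per gene, so it is no check of how shared reads were divided, which was not tested. The 57 log2 ratios of single genes under these settings ran from -5.32 to -2.18, and 0 changed sign. The median log2 ratio of -3.38 became -3.51 with TMM scaling, -3.53 with the median ratio set to 1, -3.31 with scaling to reads on listed genes, -3.92 with whole-number genes only and -3.30 by peak height. The summed ratio of 8.84 became 9.69, 9.80, 8.44, 15.2 and 8.42 under the same settings in that order, and 10.9 without CAB4. The ratio of CAB8 to CAB4 between the tissues, 2.51, became 2.67 by peak height, and that of CAB7 to CAB4, 1.72, became 1.75; scaling cannot move either. The share of all genes higher in the leaf by 2-fold or more was 17.5% and became 27.2% at a mean of at least 100 RPM. The order of the 8 ratios was the same in 5 of 7 settings that held all 8. No replicate could be left out. No paired analysis was possible because there is a single library for each tissue. Depth is limiting mainly for the anther values of Solyc12g006140, Solyc03g005790 and Solyc03g005780, which rest on 254.5, 314 and 416 reads.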
